A study of Mus musculus with 9 samples.

Results

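The cytosolic ribosome is built from ribosomal RNA and ribosomal proteins, one set in the small subunit (Rps genes) and one in the large subunit (Rpl genes). Rplp0, Rplp1 and Rplp2 encode the stalk of the large subunit, to which elongation factors bind. The genes described here were every gene of the count table whose mouse symbol is Rpl or Rps followed by a number and an optional a, l or x, or is Rpsa, Rplp0, Rplp1 or Rplp2. Symbols with -ps, Rps6k genes and names beginning with Gm were left out. The rule found 83 genes of the 52636 in the table, 32 of them Rps and 51 Rpl, spread over 19 chromosomes. They held 7305879 of 63121420 unique molecular identifiers (UMIs, 1 per captured transcript), 11.6% of all. A total of 78 had more than 1000 UMIs over all cells, 4 had fewer, and Rpl10l had 0.

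Thyroid tissue of male C57BL/6 mice, 10 weeks of age or older with an upper age given as 12 weeks in one description and 14 in another, was digested and sequenced as single cells 7 days after 1 intraperitoneal injection of antibodies. The controls (RW) received anti-ragweed at 40 mg/kg. The ligand-blocked group (aJ1aJ2) received anti-Jag1 and anti-Jag2 at 20 mg/kg each, and the receptor-blocked group (aN1aN2) received anti-Notch1 at 5 mg/kg and anti-Notch2 at 10 mg/kg. Each group had 3 samples, and each sample was a pool of 6 mice (54 mice in all), so the spread between samples is a spread between pools. Jag1 and Jag2 are ligands of the Notch receptors, through which neighbouring cells signal.

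The table held 10186 cells in 16 labels given by the authors, at 583 to 1805 cells and 3013324 to 11880793 UMIs per sample, with 15 barcodes found in more than 1 library. Th1 cells carried the thyrocyte markers at a summed 86993 to 117424 CPM (UMIs scaled to a common library total) in every sample, with all 10 markers detected. Median UMIs per Th1 cell were 12535 to 22558 in RW, 9968 to 15314 in aJ1aJ2 and 5737 to 7558 in aN1aN2, so depth moved with receptor blockade. The identifiers in the sample titles fall into 3 ranges, here called series: one holds RW 3 and aJ1aJ2 1, another RW 1, RW 2, aJ1aJ2 3 and aJ1aJ2 4, and the last all 3 aN1aN2 samples, so this series and receptor blockade cannot be told apart. Sums per cell label cannot separate fewer transcripts per cell from a different mix of cells within the label.

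Ribosomal protein mRNAs are among the most abundant in growing cells. Most of them, like those of many translation factors, begin with a run of pyrimidines, the terminal oligopyrimidine or TOP element, through which the kinase mTORC1 controls how strongly they are translated and how stable they are. Ribosomal protein content differs between cell types, being high in lymphocytes and low in maturing red cells.

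In RW the share of UMIs in ribosomal protein genes differed widely between labels. T1 cells gave 30.2%, 31.6% and 34.8% in RW 1, RW 2 and RW 3, and Th1 cells gave 11.2%, 11.0% and 12.2%. The endothelial-named label EC4 gave 6.91%, 8.11% and 7.82%. The erythroid-named labels stood lowest, Eryth1 under 1% in each sample. T1 was above all other labels tested in RW without overlap.

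**Figure D1:**
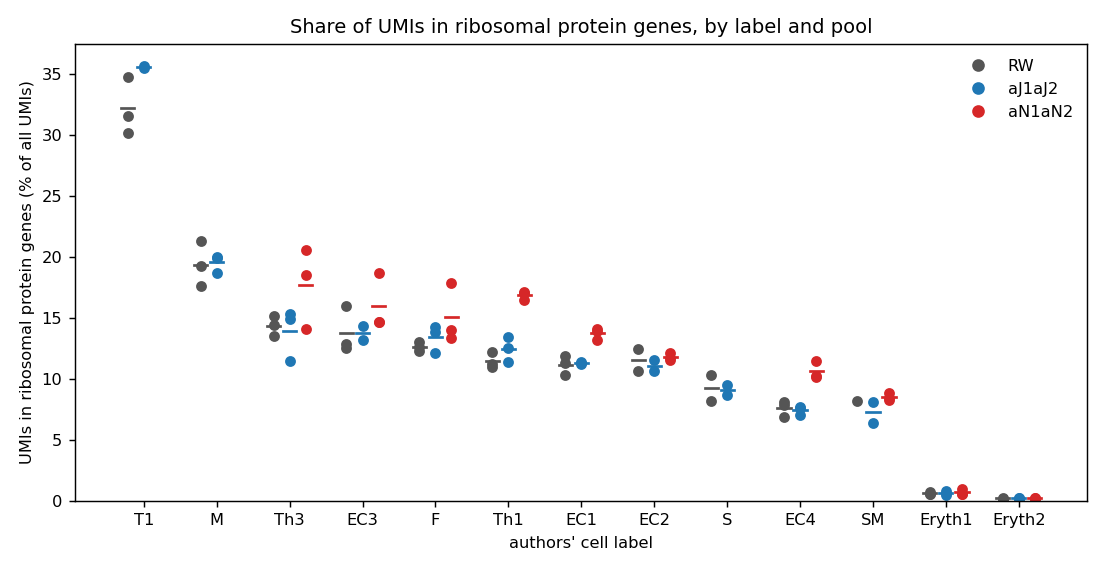
Share of all UMIs that fell in the 83 ribosomal protein genes (percent, y axis) for each authors' label (x axis), 1 point per pool, with group means as bars. In Th1 the 3 aN1aN2 pools (16.5% to 17.1%) sit above all RW pools (11.0% to 12.2%) and all aJ1aJ2 pools (11.4% to 13.5%).

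Under receptor blockade a larger share of the Th1 transcripts came from ribosomal protein genes. The share was 17.1%, 16.5% and 17.0% in aN1aN2 1, 2 and 3, against 11.2%, 11.0% and 12.2% in RW 1, 2 and 3 and 11.4%, 13.5% and 12.6% in aJ1aJ2 1, 3 and 4. The group means were 16.9% ± 0.330 (SD, n = 3), 11.5% ± 0.616 and 12.5% ± 1.04. The ratio of aN1aN2 to RW was 1.47, and 1.46 when mitochondrial transcripts and Tg, the thyroglobulin gene, were left out of the denominator. The Wilson 95% intervals, which cover counting error only, were narrower than the spread between pools. The 3 aN1aN2 pools lay above all 6 others, while aJ1aJ2 overlapped RW.

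The count of ribosomal protein UMIs in a Th1 cell was not higher under receptor blockade. It was 2815, 1963 and 3956 per cell in RW and 1975, 2092 and 2395 in aN1aN2, a ratio of means of 0.740, with overlap. UMIs of all other genes were 22205, 15883 and 28553 per cell in RW and 9582, 10596 and 11681 in aN1aN2, a ratio of 0.478, without overlap. All changes given below are therefore relative to the other transcripts of the same cells.

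The difference in share was also present within ranges of depth. In Th1 cells with 5000 to 15000 UMIs the share was 9.31%, 9.33% and 10.4% in RW, 9.36%, 11.9% and 12.2% in aJ1aJ2 and 16.8%, 16.7% and 16.0% in aN1aN2. Depth was not equal inside this range: the median was 10556 to 10771 UMIs in the RW pools, 8868 to 10398 in the aJ1aJ2 pools and 7448 to 7919 in the aN1aN2 pools. Cells with 20000 UMIs or more gave 11.6%, 11.7% and 12.5% in RW and 18.1%, 17.1% and 18.2% in aN1aN2. In each of the 4 depth bands every aN1aN2 pool lay above every RW pool, although the lowest band held only 5 to 7 RW cells per pool.

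**Figure D2:**
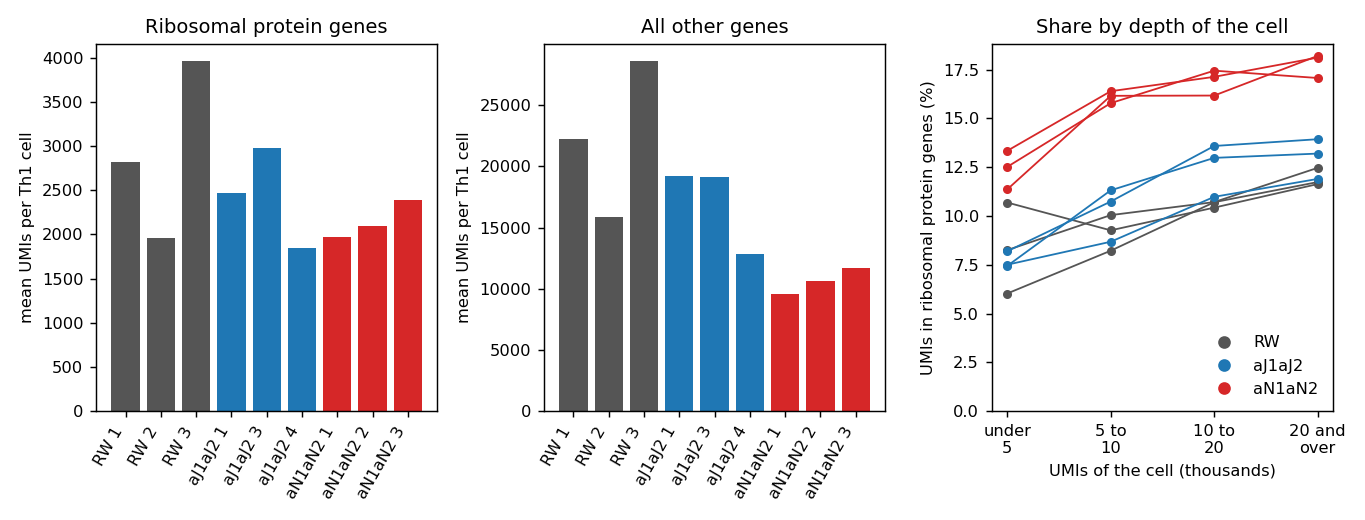
Left and middle, mean UMIs per Th1 cell (y axis) in ribosomal protein genes and in all other genes, 1 bar per pool. Right, share of UMIs in ribosomal protein genes (percent) against the total UMIs of the cell in 4 bands, 1 line per pool; the aN1aN2 lines lie above the RW lines in every band.

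Gene by gene in Th1, 70 of the 78 ribosomal protein genes tested were higher in aN1aN2 than in RW and 2 were lower (adjusted p under 0.05 in the quasi-likelihood test of edgeR, Benjamini-Hochberg adjusted over 10627 genes). Among all genes tested, 17.1% were called higher and 17.3% lower. The median change of the 78 was 0.54 on the log2 scale, against 0.02 for all genes. The other 5 of the 83 (Rpl3l, Rpl6l, Rpl10l, Rpl32l and Rpl39l) did not pass the filter on low counts. Restricting the sums to Th1 cells with 5000 to 15000 UMIs, a window chosen after the depths were seen, gave 69 higher and 1 lower of 77 tested and a median of 0.72, where 22% of the 6742 genes of that fit were called in either direction.

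Small-subunit genes were higher in 28 of 30 tested, with a median change of 0.54. Rps19, an Rps protein mutated in Diamond-Blackfan anaemia, had 2000, 2021 and 2052 CPM in RW, 2329, 2839 and 2451 in aJ1aJ2, and 4786, 4432 and 5168 in aN1aN2. The aN1aN2 pools lay above all others, and the aJ1aJ2 pools lay above the RW pools. The change against RW was 1.24 ± 0.10 (log2, SE; edgeR adjusted p = 3.53e-07), the largest among the 78. Rps27 had 2175, 2323 and 2270 CPM in RW and 4727, 4704 and 4918 in aN1aN2, a rise of 1.08 ± 0.10 (edgeR adjusted p = 7.89e-07). Rpsa, which also serves as a laminin receptor, rose less, from 1220, 1223 and 1426 CPM to 1818, 1594 and 1811 (log2 change 0.43 ± 0.10, edgeR adjusted p = 0.00356). Rps29 (log2 change 0.17, edgeR adjusted p = 0.123) did not pass the threshold.

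Large-subunit genes were higher in 41 of 43 tested, with a median change of 0.55. Rpl27a led them, at 655, 728 and 941 CPM in RW, 951, 711 and 692 in aJ1aJ2, and 1618, 1704 and 1833 in aN1aN2. Its RW and aJ1aJ2 pools overlapped and its aN1aN2 pools stood clear of both (log2 change against RW 1.15 ± 0.14, edgeR adjusted p = 2.40e-05). Rpl21 went from 1784, 1835 and 2159 CPM to 4138, 3746 and 4357, a log2 change of 1.08. Rpl36 and Rpl24 rose by 0.98 and 0.89. Rpl41, which encodes the shortest ribosomal protein, had 5594, 5236 and 5869 CPM in RW and 6335, 6179 and 6976 in aN1aN2, a log2 change of 0.22 that did not pass (edgeR adjusted p = 0.0826). Rpl23a was level, at 518, 502 and 509 CPM in RW and 477, 504 and 553 in aN1aN2 (log2 change 0.00 ± 0.09). Rpl13a was counted at only 36.4 to 55.6 CPM over the 9 pools; copies of this gene elsewhere in the genome can take its reads, so its rise of 0.42 (edgeR adjusted p = 0.0259) is uncertain.

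The stalk genes gave small changes. Rplp0 had 1805, 1853 and 2212 CPM in RW and 2522, 2132 and 2609 in aN1aN2, with overlap between the groups and a log2 change of 0.31 ± 0.11 (edgeR adjusted p = 0.0388). Of 17 alternatives 8 ended this call, including those that left out RW 1, RW 2, aN1aN2 1 or aN1aN2 3; the highest edgeR adjusted p was 0.137. Rplp1 (log2 change 0.23, edgeR adjusted p = 0.0574) and Rplp2 (0.14, edgeR adjusted p = 0.261) were not called. Rplp1 passed under 3 of 17 alternatives, including scaling by library totals and the depth window (log2 change 0.45, edgeR adjusted p = 0.00790).

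The copies with symbols ending in l that were tested, grouped as paralogs, both went down. Rps27l, a paralog of Rps27 and a known p53 target, had 492, 456 and 504 CPM in RW, 477, 448 and 486 in aJ1aJ2, and 343, 339 and 366 in aN1aN2. It fell by 0.47 on the log2 scale (SE 0.09, edgeR adjusted p = 0.00118) while its paralog Rps27 rose. In the third of 3 random thinnings to the smallest Th1 total the change was -0.25 and was not called (edgeR adjusted p = 0.240), and the other 16 alternatives kept the call. Rps4l, a copy of Rps4x that the annotation calls a transcribed pseudogene, had 20.0, 18.9 and 19.7 CPM in RW and 11.0, 10.3 and 15.7 in aN1aN2, and fell by 0.74 (SE 0.22, edgeR adjusted p = 0.0185). The Rps4l call rested on few UMIs. Thinning every pool to the smallest Th1 total gave changes of -0.18, -0.65 and -0.48 in 3 random draws (edgeR adjusted p = 0.852, 0.398 and 0.755). It was not called without aN1aN2 1 (edgeR adjusted p = 0.0880) or without aN1aN2 2 (0.0931), and the DESeq2 Wald test gave an adjusted p of 0.0742. Rps4x rose by 0.56 (edgeR adjusted p = 0.000746).

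**Figure D3:**
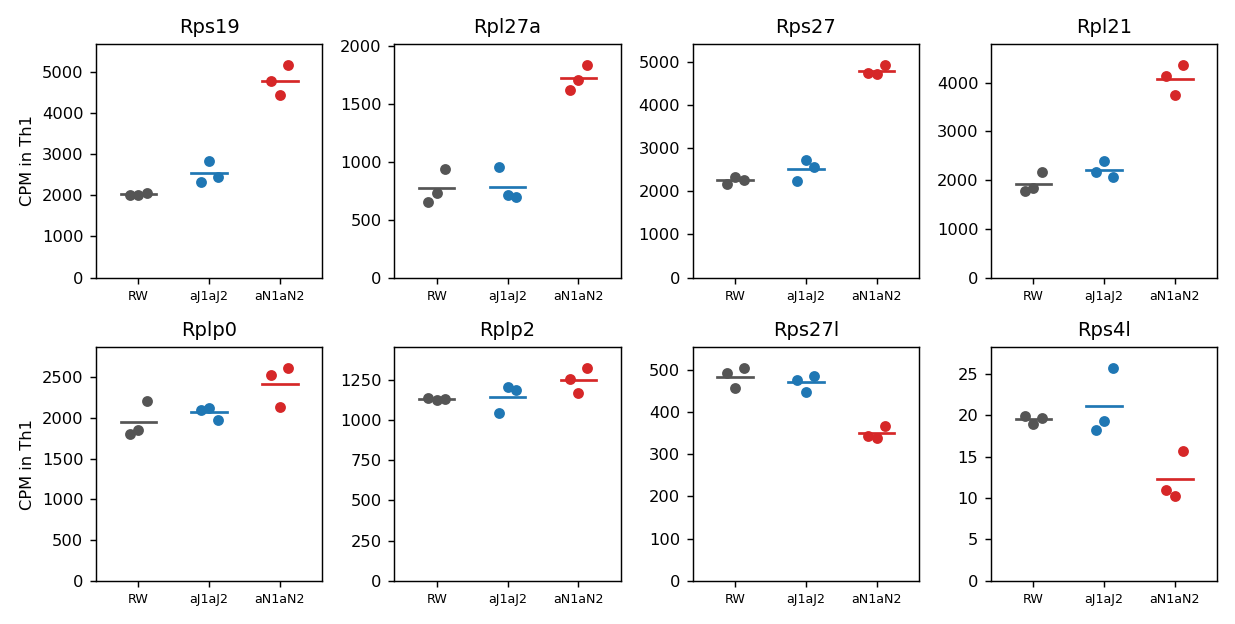
Levels of 8 ribosomal protein genes in Th1 (CPM, y axis from 0), 1 point per pool and a bar at each group mean. Rps19, Rpl27a, Rps27 and Rpl21 were the 4 largest rises; Rplp0 and Rplp2 are stalk genes, and Rps27l and Rps4l are the 2 copies that were lower in aN1aN2.

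**Figure D4:**
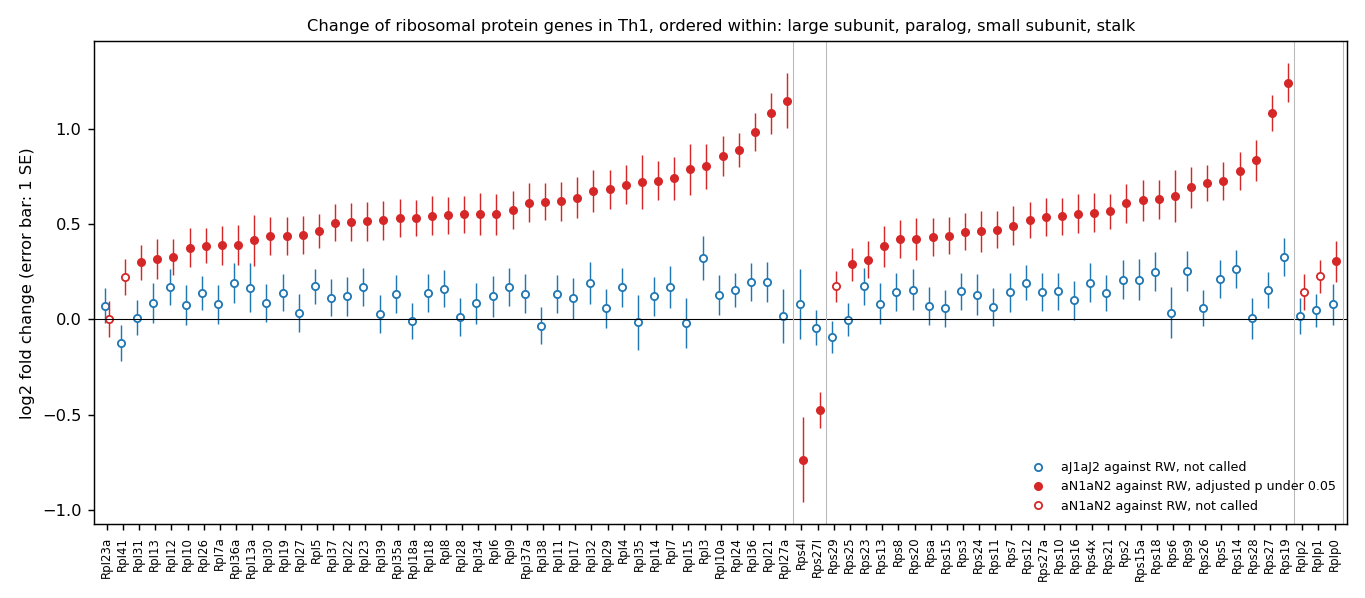
Log2 change of 77 of the tested genes in Th1 (y axis, with 1 SE), ordered by size within each role. Red points (aN1aN2 against RW) lie above 0 for 75 of 77 genes, 70 of them called, whereas blue points (aJ1aJ2 against RW) lie between -0.13 and 0.33 and none was called.

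Genes with related names outside the rule did not all move alike. In Th1, Rps3a1, left out only because its symbol does not match the rule, had 51201 UMIs. It ranged over 1626 to 2013 CPM in the RW pools and over 2765 to 3026 in the aN1aN2 pools. Rpl36al was lower in the aN1aN2 pools (675 to 798 CPM) than in the RW pools (987 to 1137), as was Rpl7l1 (43.1 to 43.5 against 66.0 to 75.5). Rpl22l1 was higher, at 1005 to 1144 CPM against 692 to 725, and so were Rps27rt, at 116 to 159 against 40.3 to 91.0, and Rpl37rt, at 61.6 to 81.4 against 26.9 to 55.3. The 290 symbols with -ps, most of them pseudogenes, gave a summed 325 to 383 CPM in the RW pools and 475 to 696 in the aN1aN2 pools. Reads shared between a gene and a near-identical copy, such as a pseudogene, could be placed on either, and the size of that exchange was not tested.

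Markers of other cell types in the Th1 sums were measured beside these changes. The summed T cell markers (7 of 7 detected) were at 2.66 to 10.7 CPM in the RW pools and 1.15 to 4.38 in the aN1aN2 pools, and thymocyte markers (6 of 6 detected) were under 4 CPM in every pool. Thyrocyte markers were higher under receptor blockade, at 99381 to 114876 CPM against 91553 to 98701 with RW. Parathyroid markers (4 of 4) were higher under receptor blockade, at 125 to 294 CPM against 10.0 to 48.5 with RW, as were fibroblast markers (6 of 6), at 182 to 219 against 87.7 to 102. Schwann cell markers (4 of 5) were lower, at 110 to 135 CPM against 241 to 277. Erythroid markers (6 of 6) overlapped, at 660 to 1267 CPM against 95.7 to 1644, and so did C cell markers (4 of 4), at 987 to 1835 against 428 to 1098. The mitochondrial share of UMIs in Th1 was lower under receptor blockade, at 6.60% to 6.99% against 8.07% to 8.83% with RW. The 8 listed mitochondrial genome genes overlapped, at 52733 to 55045 CPM against 54082 to 59241. The part of these in the changes was not tested.

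The TOP element offers a view of these genes at their start sites. RefSeq windows (GRCm38.p6, 250 bases before to 50 after the annotated start) existed for 61 of the 83 genes, 10 of them with several entries, of which the one at the lowest coordinate was read. An unbroken run of at least 8 pyrimidines touching the start (5 bases before to 10 after) was found in 24 of the 61 windows (39.3%) and in 11.2% of all 27025 windows. The letters CTTTCC on the sense strand stood in 21 (34.4%) against 14.1% of all windows, and within 15 bases of the start in 9 (14.8%) against 1.64%. Counting its reverse complement GGAAAG as well, 28 windows (45.9%) held it against 26.3% of all. The following 30-base stretches, centred on the annotated start and written along the transcript, are the 5 largest rises in Th1 among genes with a single RefSeq entry that could be shown, then Rpl41 and Rplp2, which were not called, and Rps27l, which was lower. Capitals mark the longest pyrimidine run at the start.
Rpl27a (chr7:109519180-109519209, plus strand): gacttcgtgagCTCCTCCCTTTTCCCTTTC
Rps27 (chr3:90213634-90213663, minus strand): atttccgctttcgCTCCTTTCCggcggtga
Rpl24 (chr16:55966260-55966289, plus strand): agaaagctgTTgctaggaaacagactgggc
Rps28 (chr17:33824548-33824577, minus strand): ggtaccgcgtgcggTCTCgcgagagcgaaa
Rpl15 (chr14:18270972-18271001, minus strand): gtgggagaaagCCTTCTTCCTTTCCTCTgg
Rpl41 (chr10:128549154-128549183, minus strand): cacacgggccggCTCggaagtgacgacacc
Rplp2 (chr7:141447636-141447665, plus strand): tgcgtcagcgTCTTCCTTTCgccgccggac
Rps27l (chr9:66946071-66946100, plus strand): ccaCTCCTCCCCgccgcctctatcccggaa

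Long runs stood among both the genes that rose and those that did not. Rpl27a, Rps27 and Rpl15 carried runs of 20, 9 and 17 pyrimidines (that of Rpl27a goes on past the end of the printed stretch), while Rpl24 and Rps28 rose with runs of 2 and 4. Rplp2 (run of 10) and Rps27l (run of 9) did not rise. The Rps27l run ends before the annotated start, so it lies outside the transcript as annotated there. Rps27l had 2 RefSeq entries, and its annotated gene begins further upstream, at position 66944624. Over the 57 tested genes with a window, the median Th1 change was 0.62 for the 23 with a run of at least 8 and 0.48 for the 34 with a shorter one, and the ranges overlapped (-0.47 to 1.15 and 0.22 to 1.24). A match of letters at an annotated start describes the sequence and shows no binding or control.

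Translation factors with TOP mRNAs rose with the ribosomal proteins in Th1. Of 24 factors listed and tested, 22 were higher in aN1aN2 than in RW and none was lower, with a median change of 0.79, where 17.1% of all genes were called higher and 17.3% lower. Eif4b, a cofactor of the initiation helicase, had 105, 105 and 95.8 CPM in RW and 435, 447 and 436 in aN1aN2 (log2 change 2.11 ± 0.14, edgeR adjusted p = 3.45e-08). Eif3e rose by 1.54 and the poly(A)-binding protein gene Pabpc1 by 1.32. The elongation factor genes Eef2 and Eef1a1 rose by 1.31 and 0.80, Npm1 by 1.23 and Tpt1 by 0.35. Eef1b2 (0.27) and Eef1g (0.06) were not called.

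Of 37 ribosome assembly genes tested in Th1, 3 were higher and 14 lower in aN1aN2 than in RW, with a median of -0.24, where 17.1% of all genes were called higher and 17.3% lower. Bysl, needed for small-subunit maturation, had 16.4, 10.1 and 21.5 CPM in RW and 2.74, 3.03 and 4.84 in aN1aN2 (log2 change -2.36 ± 0.48, edgeR adjusted p = 0.00155). Ltv1, Bop1 and Nolc1 fell by 1.07, 0.97 and 0.89. Against aJ1aJ2, 3 of the 37 were higher and 5 lower, with a median of -0.23, where 10.8% and 11.5% of all genes were called. In F, 3 of 22 assembly genes tested were higher and 0 lower in aN1aN2 than in RW, with a median of 0.54, where 9.17% of all genes were called higher. In Th1, the proteins of the mitochondrial ribosome, a separate machine, gave 5 genes higher and 40 lower of 77 tested in aN1aN2 against RW. Their median was -0.41, where 17.1% of all genes were called higher and 17.3% lower. Mrps28 fell by 1.53 and Mrps25 by 1.38, while Mrps9 rose by 1.27.

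Genes of mTORC1 and translational control in Th1 were higher in 8 and lower in 2 of 25 tested in aN1aN2 against RW. Their median was 0.33, again beside 17.1% and 17.3% of all genes. Sesn2, an inhibitor of mTORC1, rose by 2.04, Ddit4, another inhibitor, by 1.47 and Myc, a transcription factor that drives ribosome production, by 1.34; Myc stood at only 4.10 to 10.1 CPM with RW, against 14.5 to 15.7 with aN1aN2. The p53 targets listed were higher in 7 and lower in 2 of 19 tested, with a median of 0.32. The cell-cycle inhibitor gene Cdkn1a rose from 32.8, 27.7 and 19.9 CPM to 99.3, 121 and 70.1 (log2 change 1.90 ± 0.21, edgeR adjusted p = 8.83e-06) and Perp and Btg2 rose by 2.02 and 1.32; Sesn2 is on this list too. Mdm2, whose product restrains p53, had a log2 change of 0.35 (edgeR adjusted p = 0.0923), and the 2 listed genes that fell were Gadd45a (by 1.26) and Bax (by 0.92).

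Ligand blockade gave no called ribosomal protein gene in Th1. Of 78 tested, 0 passed in aJ1aJ2 against RW with edgeR, where 0.612% of all genes were called, and 5 had an unadjusted p under 0.05; DESeq2 also called 0. The median change was 0.13, with a range of -0.13 to 0.33, and 70 of 78 changes were positive. Rps19 had the smallest p (log2 change 0.33 ± 0.10, edgeR adjusted p = 0.160). The count depended on which pools were compared. Without aJ1aJ2 1 there were 5 genes called, all higher. Among the 4 pools of 1 series (RW 1, RW 2, aJ1aJ2 3 and aJ1aJ2 4) there were 12, all higher. The share of all genes called in those fits was not counted. None of the genes on the lists of translation factors, ribosome assembly, mitochondrial ribosome, mTORC1 or p53 was called in aJ1aJ2 against RW over all pools.

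Receptor blockade set against ligand blockade gave 62 genes higher and 2 lower of 78 tested in Th1, where 10.8% of all genes were called higher and 11.5% lower. The median change was 0.40. Rpl27a had the largest change (1.13 ± 0.14, edgeR adjusted p = 5.85e-05), followed by Rps27 (0.93) and Rps19 (0.92), while Rps27l fell by 0.43 and Rps4l by 0.82. The Rps4l call was lost in 7 of 14 alternatives (DESeq2, all 3 thinnings, and without aJ1aJ2 4, aN1aN2 1 or aN1aN2 2). That of Rps27l was lost in the third thinning and in the depth window (log2 change -0.30). The stalk genes gave no call. The comparison uses the same aN1aN2 pools as the one against RW and is not an independent repeat. Parathyroid markers in Th1 were 125 to 294 CPM in the aN1aN2 pools against 19.7 to 69.1 in the aJ1aJ2 pools, and Schwann cell markers 110 to 135 against 175 to 218. The mitochondrial share was 6.60% to 6.99% against 7.87% to 10.1%, while the 8 listed mitochondrial genome genes overlapped, at 52733 to 55045 CPM against 53229 to 62571. The part of these was not tested.

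In the other labels fewer ribosomal protein genes were called under receptor blockade than in Th1, a count that does not itself show a smaller change. In EC1, 25 of 78 were higher and 1 lower in aN1aN2 than in RW, where 8.83% of all genes were called higher and 8.93% lower. In EC4, 26 of 77 were higher and 1 lower, against 11.2% and 9.93% of all genes. The median changes were 0.27 and 0.36. Leaving out single pools moved the EC1 count of 26 calls to 14 (without aN1aN2 2), 15 (without RW 2) and 15 (without aN1aN2 3), and the EC4 count of 27 to 10 (without RW 1) and 14 (without aN1aN2 3). Marker levels moved with these changes in both labels. In EC1 the summed thyrocyte markers were 1351 to 2001 CPM in the aN1aN2 pools against 723 to 992 in the RW pools, parathyroid markers 228 to 334 against 47.1 to 92.3, and C cell markers 130 to 187 against 28.4 to 68.8. Endothelial markers in EC1 were lower, at 11163 to 11712 CPM against 14640 to 16210, as were macrophage markers, at 5.34 to 12.7 against 92.7 to 240.2. The 8 listed mitochondrial genome genes in EC1 summed to 24517 to 28506 CPM against 18836 to 22702, while the share of UMIs in all mitochondrial genes overlapped, at 3.98% to 4.57% against 4.46% to 5.63%. In EC4 erythroid markers were higher, at 1672 to 2402 CPM against 218 to 1065, and so were C cell markers, at 197 to 472 against 71.8 to 99.1. Endothelial markers in EC4 were lower, at 12699 to 13261 CPM against 14165 to 15112. The mitochondrial share of UMIs was lower too, at 5.51% to 6.99% against 9.04% to 11.7%. The 8 listed mitochondrial genome genes in EC4 overlapped, at 36251 to 49360 CPM against 45826 to 52549. Macrophage and Schwann cell markers were also lower in EC4, and thyrocyte markers overlapped. The part of these in the changes was not tested.

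Rps28, a small-subunit gene, had the largest change in EC1 and EC4. In EC1 it had 1283, 1232 and 1035 CPM in RW, 1128, 1052 and 1289 in aJ1aJ2, and 2605, 2778 and 2903 in aN1aN2, a log2 change against RW of 1.22 ± 0.12 (edgeR adjusted p = 1.19e-07). In EC4 it went from 1068, 1245 and 838 CPM to 2425, 2613 and 2618, a change of 1.29 ± 0.18 (edgeR adjusted p = 4.00e-06). Its change in Th1 was 0.84 ± 0.11. The aN1aN2 pools were clear of all others in both labels.

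Rps4l stood higher in the endothelial-named labels than in Th1 and T1, and it fell in EC1 and EC4. In RW, as a plain share of the label's UMIs, it stood at 167 CPM in EC1 (855 UMIs), 179 in EC3, 144 in EC4 and 122 in EC2. This compares with 19.5 CPM in Th1 and 8.65 in T1. In EC1 it had 194, 166 and 158 CPM in RW, 139, 103 and 152 in aJ1aJ2, and 82.3, 77.8 and 95.5 in aN1aN2, a fall of 1.02 (SE 0.18, edgeR adjusted p = 0.000358). In EC4 it fell by 0.94 (edgeR adjusted p = 0.0355), and in EC3 the change of -0.82 was not called (edgeR adjusted p = 0.0612). All 6 labels in which it was tested gave a negative change, and 3 of them passed.

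In the remaining labels calls were few. In F, the label with the fibroblast markers, 5 of 78 genes were higher and 0 lower where 9.17% of all genes were called higher: Rpl27a (0.86), Rpl36 (0.75), Rps28, Rps27 and Rpl24. The median change in F was 0.30, the share of UMIs was 14.0%, 13.3% and 17.9% in aN1aN2 against 12.3%, 12.6% and 13.0% in RW, and the means of the cells' own shares overlapped (12.2% to 13.8% against 11.0% to 13.5%). Erythroid markers in F were 857 to 43685 CPM in the aN1aN2 pools, all above the 109 to 298 of the RW pools, while endothelial markers were lower, at 56.0 to 96.6 against 136 to 166. Their part in the F changes was not tested. Without aN1aN2 3, or without RW 3, the count in F was 3. In EC2, 1 of 77 was higher (Rpl27a, 0.70) and 1 lower (Rpl5, -0.73) where 8.85% and 6.62% of all genes were called. Neither passed without aN1aN2 3, nor without RW 1 or RW 2, which leaves 1 RW pool in that label. Thyrocyte markers in EC2 were 880 to 1616 CPM in the aN1aN2 pools against 645 to 660 in the RW pools. Erythroid markers were 1343 to 1772 against 411 to 494, and parathyroid markers 195 to 437 against 42.8 to 133. Fibroblast markers were 118 to 253 against 8.57 to 61.7, and skeletal muscle markers 655 to 1012 against 428 to 622. The part of these in the EC2 changes was not tested. In Th3, 1 of 76 (Rpl27a, 1.07) passed where 2.49% of all genes were called higher, and none passed without any one of 5 of the 6 pools, every one but aN1aN2 2. The median change in Th3 was 0.40 and 73 of 76 changes were positive. The markers in Th3 differed between the groups: C cell markers were 36894 to 67485 CPM in the RW pools and 652 to 10422 in the aN1aN2 pools, and Schwann cell markers 213 to 258 and 23.0 to 110. Erythroid markers in Th3 were 285 to 1200 CPM with RW and 1290 to 1787 with aN1aN2, and macrophage markers 20.6 to 468 and 0 to 11.0. Skeletal muscle markers spanned 44.1 to 94979 CPM over the aN1aN2 pools against 117 to 620 in the RW pools. The part of these in the Th3 changes was not tested.

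In EC3 edgeR called 0 of 78 genes, where 5.91% of all genes were called; 10 had an unadjusted p under 0.05, DESeq2 called 1, and 4 passed without RW 2. Smooth muscle markers in EC3 were 766 to 976 CPM in the aN1aN2 pools against 2736 to 4385 in the RW pools. Fibroblast markers were also lower, at 92.8 to 119 against 229 to 1698, as were macrophage, T cell, thymocyte and Schwann cell markers. Endothelial markers were higher, at 7090 to 8402 against 4781 to 6125. So were erythroid (743 to 1130 against 120 to 308) and parathyroid markers (79.3 to 327 against 20.9 to 56.1). The mitochondrial share was lower, at 4.09% to 4.18% against 4.79% to 5.56%, but the 8 listed genes were higher. Their part was not tested. Eryth1 gave 2 of 58 (Rpl14, 2.27, and Rps19, 1.69), where 2.8% of all 143 genes tested were called higher. Eryth2 gave 1 higher (Rpl21, 0.93) and 1 lower (Rpl17, -0.93) of 56, where 3.94% and 4.66% were called. Levels in these erythroid-named labels were low: Rps19 in Eryth1 had 41.5, 43.2 and 19.4 CPM in RW and 163, 107 and 95.2 in aN1aN2. Leaving out single pools gave 0 to 1 calls in each of these labels.

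Across the 9 labels tested, Rpl27a was higher in 6 (EC1, EC2, EC4, F, Th1 and Th3), more than any other of the genes. Its EC2 and Th3 calls were lost in fits with single pools left out, as given above. The labels come from the same pools and are not separate repeats, and no such count over all genes was made. Rpl21, Rpl24, Rpl36, Rps27 and Rps28 were each higher in 4. A total of 35 genes were higher in 1 label, 17 in 2 and 12 in 3, and 8 were higher in none, among them Rpl23a, Rpl41, Rplp1, Rplp2, Rps27l, Rps29 and Rps4l. In F, Rpl27a had 1073, 1028 and 1297 CPM in RW and 1722, 1931 and 2504 in aN1aN2. In Th3 it had 1072, 1358 and 1321 CPM in RW and 2829, 2635 and 2409 in aN1aN2.

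**Figure D5:**
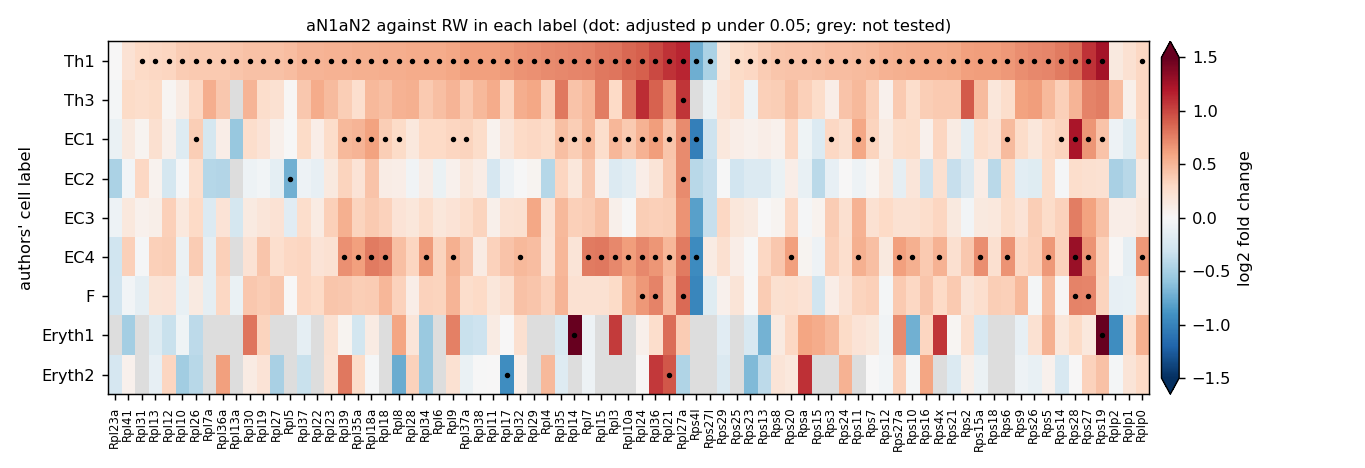
Log2 change of ribosomal protein genes in aN1aN2 against RW (colour) by gene (x axis, ordered as in Th1 within each role) and authors' label (y axis); dots mark adjusted p under 0.05 and grey marks genes not tested. The Th1 row carries 72 dots, EC1 26, EC4 27, F 5 and the others at most 2.

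Whether the change in Th1 differed from that in another label was tested on differences taken within each pool (limma, Benjamini-Hochberg adjustment). For aN1aN2 against RW, 39 of 78 genes had a more positive change in Th1 than in EC1 and 1 a more negative one, where 6.59% of all genes were called more positive and 6.1% more negative. The counts were 45 of 77 against EC2 (6.05% of all genes), 24 of 78 against F (8.8%), 5 of 56 against Eryth2 (4.26%), 4 of 77 against EC4 (5.47%) and 3 of 78 against EC3 (3.35%), with none more negative in those 5 labels. Against Th3 and Eryth1 there were 0 calls, as for all genes of those tests. Rps19 differed from EC1 by 0.83 ± 0.10, from EC4 by 0.94 ± 0.15, from F by 0.98 ± 0.13 and from EC3 by 0.81 ± 0.20 (log2, SE; limma adjusted p = 0.000220, 0.00173, 0.000214 and 0.0266). Rps28 was the gene with the more negative change in Th1 than in EC1 (-0.37 ± 0.10, limma adjusted p = 0.0255).

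These counts depended on how limma modelled the variance. They rest on a variance that varies with mean expression. With 1 prior variance for all genes the counts were 7 for EC1, 2 for EC2, 4 for F, 3 for Eryth2, 1 for EC4 and 0 for EC3. Single pools moved them as well. The EC1 count of 40 was 24 without RW 1 or aN1aN2 1 and 26 without RW 3. The EC2 count of 45 was 24 without aN1aN2 1; it was 5 without RW 1 and 9 without RW 2, where a single RW pool is left. The F count of 24 was 44 without aN1aN2 3 and 10 to 15 without any other single pool of these groups.

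For aN1aN2 against aJ1aJ2, 14 genes had a more positive change in Th1 than in EC1 (4.38% of all genes) and 1, Rps28, a more negative one (4.23%). The counts of more positive changes were 13 against F (5.11%), 4 against EC2 (1%), 2 against EC4 (2.42%) and 2 against Eryth2 (2.71%). With 1 prior variance for all genes these counts were 0 against EC1, EC2, EC4 and Eryth2 and 1 against F. Leaving out single pools moved the F count between 4 and 32. It put the calls in either direction at 7 to 16 against EC1, 0 to 1 against EC4 and 0 to 2 against Eryth2. Against EC2 there were 0 without any single aN1aN2 pool. There were 0 against EC3 (1.09% of all genes called), SM (0.644%), Th3 and Eryth1 (0% each). For aJ1aJ2 against RW there were 0 against any of the 11 labels, where the share of all genes called was 0.0698% for EC1, 0.125% for EC2, 0.0336% for EC4, 0.388% for Eryth2, 0.0452% for F, 0.0734% for T1 and 0% for EC3, Eryth1, M, S and Th3.

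In labels other than Th1, ligand blockade gave 0 calls among the ribosomal protein genes in all 11 labels tested against RW (edgeR; 0 by DESeq2 as well). Of all genes, 1.43% were called in EC1, 1.91% in EC2, 0.0618% in EC3, 0.903% in EC4, 0.358% in Eryth2, 0.579% in F and 0% in Eryth1, M, S, T1 and Th3. Unadjusted p under 0.05 was reached by 0 to 16 genes per label, the 16 in T1. In T1, 74 of 77 changes were positive with a median of 0.25, and the share of UMIs was 35.7% and 35.5% in aJ1aJ2 3 and 4, above all 3 RW pools. By the means of the cells' own shares the groups overlapped, RW 3 (34.8%) lying above aJ1aJ2 3 (33.7%) and aJ1aJ2 4 (33.6%). Thymocyte markers in T1 were 301 to 413 CPM in the aJ1aJ2 pools against 25.8 to 217 in the RW pools, and their part was not tested.

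Against aJ1aJ2, receptor blockade gave 22 higher and 1 lower of 78 in EC1 (6.95% and 6.59% of all genes) and 20 of 77 higher in EC4 (9.09%). Rps28 again had the largest change in both, at 1.26 and 1.34. Leaving out single pools moved the EC1 count of 23 calls to 12 (without aN1aN2 3), 13 (without aN1aN2 2), 14 (without aJ1aJ2 4) and 15 (without aJ1aJ2 3). It moved the EC4 count of 20 to 8 (without aN1aN2 3), 9 (without aJ1aJ2 4), 10 (without aN1aN2 2) and 13 (without aJ1aJ2 3). In EC1 the thyrocyte markers were 1351 to 2001 CPM in the aN1aN2 pools against 799 to 1274 in the aJ1aJ2 pools and endothelial markers 11163 to 11712 against 13049 to 16373. Parathyroid markers in EC1 were 228 to 334 CPM against 64.1 to 113, C cell markers 130 to 187 against 29.4 to 82.8 and smooth muscle markers 70.8 to 206 against 31.0 to 57.6, while macrophage markers were lower, at 5.34 to 12.7 against 27.8 to 49.0. In EC4 C cell markers were 197 to 472 CPM against 58.0 to 153, and the mitochondrial share was 5.51% to 6.99% against 12.1% to 15.1%. Their part was not tested. F and EC2 gave 2 each (7.67% and 5.78% of all genes called higher). EC3 (0.772%), Th3 (0.767%), Eryth1 (0.699%) and Eryth2 (3.94%) gave 1 each. With a pool left out F gave 0 to 2, and Th3, Eryth1 and Eryth2 gave 0 to 1 each. Without any single aN1aN2 pool EC2 gave 1 and EC3 gave 0. SM gave 0 of 77 (4 at an unadjusted p under 0.05, 0 by DESeq2), where 4.05% of all genes were called.

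The split between the subunits was measured as well. Small-subunit genes made up 41.2% to 41.8% of the ribosomal protein UMIs of Th1 in RW, 41.3% to 43.2% in aJ1aJ2 and 42.1% to 42.5% in aN1aN2, the last above RW without overlap. In Eryth1 they made up 34.0% to 35.6% in RW and 36.6% to 38.8% in aN1aN2, also without overlap. In EC2 the order was the opposite, at 45.3% and 45.4% in the 2 RW pools and 42.8% to 45.1% in aN1aN2. In EC1 the groups overlapped, at 44.4% to 45.5% and 44.5% to 45.1%.

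The rarely counted paralogs gave too few UMIs for a comparison. Rpl3l, whose product replaces Rpl3 in striated muscle, had 241 UMIs over all cells, Rpl6l, annotated as a pseudogene, 126, Rpl32l 68 and Rpl39l 30. In RW, 18 Rpl3l UMIs and 21 Rpl32l UMIs fell in Th1. Rpl10l, a paralog of the X-linked Rpl10 that is known from male germ cells, had 0 of 63121420 UMIs, which allows up to 3 over the whole table.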

How the data were processed

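Thyroid cells of 9 pools of 6 mice were captured with a 10x 3' kit, per the labels' protocols, and processed with Cell Ranger on GRCm38, per the submitters' processing notes; versions are not given in the sources used here. The deposited table holds raw UMI counts per gene and cell, and the authors' deposited annotation gives each cell's sample and label. No cells were removed and no doublet caller was run. Every pair of replicate libraries in Th1 differed by more than sampling noise (chi-square per degree of freedom 9.25 to 105). Nothing says that the pools were handled separately beyond the pooling, so p-values measure the spread between these pools.

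Counts were summed per pool and label (at least 20 cells). They were fitted with edgeR 4.0.16 (filterByExpr, TMM, quasi-likelihood, R 4.3.3), 1 fit over the 3 groups per label. Calls are at an adjusted p under 0.05 over all genes tested. CPM given pool by pool for tested genes carry the TMM scaling of the fit. CPM of marker sums, of genes with related names outside the rule and of whole labels in RW are plain shares of the summed counts. Labels entered a comparison with at least 2 pools per group: 11 besides Th1 for aJ1aJ2 against RW, 8 for aN1aN2 against RW and 9 for aN1aN2 against aJ1aJ2. Differences between labels used limma 3.58.1 on log2 CPM (prior count 2). There the variance trend was set to mean expression after a test on simulated data in which limma's default axis, the mean difference, missed most changes. This was done after the first counts were seen and raised them several-fold, so counts under the other variance models are given beside them. DESeq2 1.42.0 was an alternative, with other scalings, no filter, thinning to 872716 UMIs (3 random draws, all but the first made after its values were seen), left-out pools, and a depth window chosen after seeing the data. A floor of 3 UMIs was used for counts of 0.

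The genes, lists and tests were chosen with earlier results of these data known. Named genes were the 6 largest rises and falls among calls in Th1, up to 2 each way in other labels, up to 4 called genes per list by size of change, Cdkn1a, Mdm2, Eef1a1, Eef2, Tpt1, Npm1 and Myc, paralogs with symbols ending in l, Rpsa and the stalk genes; other names are given for the genes not called, for Rpl13a, Rps4x, Rpl15, Gadd45a and Bax, and for the largest label differences, chosen after their values were seen. Sequences are from RefSeq. Some single genes are counted but not reported by name here.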

Additional observations from a re-analysis of the deposited data

Results flagged for a closer look

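The change of ribosomal protein genes under receptor blockade differed between Th1 and other labels by the test of the difference itself (limma on within-pool differences, adjusted p under 0.05). For aN1aN2 against RW the number of genes that differed was 40 against EC1, 45 against EC2, 24 against F, 5 against Eryth2, 4 against EC4 and 3 against EC3. For aN1aN2 against aJ1aJ2, which shares the aN1aN2 pools, it was 15 against EC1, 13 against F, 4 against EC2, 2 against EC4 and 2 against Eryth2. The EC4 and EC3 counts in the first comparison (4 of 77 and 3 of 78) are near the shares of all genes called more positive in Th1 (5.47% and 3.35%), as are those of EC4 (2 of 77, 2.42%) and Eryth2 (2 of 56, 2.71%) in the second. Under limma without a trend the counts were 7 or fewer in the first comparison and 1 or fewer in the second. Rps28 was the 1 gene with a more negative change in Th1, against EC1 in both comparisons. No group had enough pools for a test of single outlying samples.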

How the results depend on the processing

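In Th1, the counts of 72 (aN1aN2 against RW) and 64 (aN1aN2 against aJ1aJ2) stayed within 1.5 times under every alternative run, at 66 to 74 and 46 to 64. The deviations of RW 1 and RW 2 had a correlation of -0.040 with those of aN1aN2 1 and aN1aN2 2 over 10627 genes. With so few pools this cannot decide whether sample numbers pair the pools, and the aJ1aJ2 pools were not part of it. The replicate block on RW 1, RW 2, aN1aN2 1 and aN1aN2 2 called 74 genes, and the same 4 pools without it 72. The depth window moved the Th1 medians from 0.54 and 0.40 to 0.72 and 0.54. The mean of the cells' own shares gave a ratio of 1.40, and leaving out pools put the ratio of aN1aN2 to aJ1aJ2 at 1.30 to 1.41. For aJ1aJ2 against RW in Th1, within the series of RW 1, RW 2, aJ1aJ2 3 and aJ1aJ2 4, 12 were called, and 0 to 5 with a pool left out. The share of all genes called in these fits was not counted.

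In other labels, DESeq2 called 1 in EC2, EC3 and Eryth2, 9 in F and 5 in Th3 for aN1aN2 against RW, and 1 in EC2, 2 in EC3, 10 in EC4, 4 in F and 2 in Th3 for aN1aN2 against aJ1aJ2. With no filter the counts for aN1aN2 against RW were 17 in EC1, 1 in EC2, 2 in EC3, and 0 in Eryth1 and Eryth2; for aN1aN2 against aJ1aJ2 they were 1 in EC2 and 0 in Eryth1, Eryth2, F and Th3; and for aJ1aJ2 against RW 1 in Th3. Scaling without the ribosomal protein genes gave 0 in Eryth2 and 4 in F for aN1aN2 against aJ1aJ2. With a pool left out, aN1aN2 against RW gave 14 to 39 in EC1, 10 to 24 in EC4, 3 to 6 in F, 0 to 2 in EC2, 0 to 4 in EC3, and 0 to 1 in Th3, Eryth1 and Eryth2. For aN1aN2 against aJ1aJ2 it gave 12 to 22 in EC1, 8 to 15 in EC4, 0 to 2 in F, 1 to 1 in EC2, 0 to 0 in EC3, and 0 to 1 in Th3, Eryth1 and Eryth2. For aJ1aJ2 against RW it gave 0 to 1 in EC1 and 0 to 6 in S. Groups with 2 pools (RW in EC2 and S, aJ1aJ2 in EC2, EC3, S, SM and T1) are then left with 1, whose spread is taken to be that of the other groups; the 6 in S come from 1 RW pool.

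For the difference between Th1 and another label, aN1aN2 against RW, no trend gave 7 (EC1), 2 (EC2), 0 (EC3), 1 (EC4), 3 (Eryth2) and 4 (F), the trend over the mean difference gave 6, 6, 0, 1, 3 and 5, and leaving out a pool gave 24 to 45, 5 to 35, 0 to 5, 1 to 4, 1 to 4 and 10 to 44. For aN1aN2 against aJ1aJ2 both variance models gave 0 in EC1, EC2, EC4 and Eryth2 and 1 in F, and leaving out a pool gave 7 to 16 in EC1, 0 to 0 in EC2, 0 to 1 in EC4, 0 to 2 in Eryth2 and 4 to 32 in F; against S, aJ1aJ2 against RW gave 0 to 15. Where a setting did not itself change the genes or pools tested, the cause was not tested.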
